A study of Mus musculus with 2 samples.

Results

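The genes described here make and fold secreted antibody: the joining chain Jchain, the secretory regulator Xbp1, and 8 chaperones and disulfide isomerases of the endoplasmic reticulum (ER), namely Hspa5, Hsp90b1, Calr, Canx, Pdia3, Pdia4, Pdia6 and Txndc5. They were chosen by gene symbol, as all probe sets that the platform's annotation assigns to one of these 10 symbols. The rule uses no threshold on a measured value, but the symbols were picked with earlier results of these data known. The rule found 13 of the 12422 probe sets that are not controls, for 10 of 8251 named genes. RNA was measured on 2 oligonucleotide arrays, called array 1 and array 2 after their titles. Both belong to 1 group, mouse spleen total RNA bought from Clontech under a single catalogue entry. The labels give no strain, age, sex, genotype or treatment, and they do not say whether the RNA was pooled over animals or whether both arrays had a tube in common. No condition was set against another, no p-value was computed, and with so few arrays the precision is low.

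An antibody-secreting cell threads its heavy and light chains into the ER, where chaperones hold them until they are folded and paired and isomerases form the disulfide bonds between and within chains. When unfolded protein builds up, the sensors Ire1 (Ern1), Atf6 and Perk (Eif2ak3) start the unfolded protein response. Ire1 splices the Xbp1 transcript, and the resulting factor, together with Atf6, switches on genes of ER folding. Both are known to act through the ER stress response element, in which the factor NF-Y holds the first box and Atf6 or Xbp1 the second. The spleen houses B cells and the plasma cells that arise from them, and every cell that exports protein uses the same folding machinery.

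Several of these genes held the ER stress response element in their promoter windows. The selection rule did not use it. The element was already known from genes of ER folding, so finding it here is no independent result. Promoters were taken from RefSeq (mouse build GRCm38.p6) as the 250 bases before and 50 bases after each annotated start, and all 10 genes matched, with 12 windows because Txndc5 has 3. The element was searched on both strands as the boxes CCAAT and CCACG with any 9 bases between them. It was found for 5 of the 10 genes, Hspa5, Hsp90b1, Calr, Canx and Pdia6, against 0.137% of all 27025 genes with a promoter window. Over all 32851 windows the share was 0.119%, or 39 windows of 37 genes. A match is a description of letters and not of a bound site. The matches are printed first because Xbp1, one of the 10 genes, is known to act on this element in genes of ER folding. Each is written 5′ to 3′ on the strand that reads the element, with 10 bases on either side, and the capitals mark the 2 fixed boxes.
Hspa5, chr2:34772015-34772053, plus strand: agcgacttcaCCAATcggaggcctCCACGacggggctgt
Hsp90b1, upstream match, chr10:86705628-86705666, minus strand: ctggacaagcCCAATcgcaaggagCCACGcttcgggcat
Hsp90b1, match nearer the start, chr10:86705523-86705561, plus strand: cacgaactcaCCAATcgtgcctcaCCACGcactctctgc
Calr, chr8:84847065-84847103, plus strand: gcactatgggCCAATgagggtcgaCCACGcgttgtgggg
Canx, chr11:50325790-50325828, minus strand: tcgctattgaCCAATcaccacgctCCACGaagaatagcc
Pdia6, chr12:17266481-17266519, plus strand: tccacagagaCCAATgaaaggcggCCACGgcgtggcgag

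All 6 matches lay before the annotated start. The one of Hspa5, which is the ER Hsp70 chaperone BiP, spanned bases 65 to 47 before it and was the nearest. That of Pdia6 spanned bases 98 to 80, that of Canx 145 to 127 and that of Calr 162 to 144. Hsp90b1 alone among the 10 held a pair of matches, at bases 212 to 194 and 107 to 89, which point in opposite directions. In Calr and in the match of Hsp90b1 nearer the start the element reads on the strand opposite to the gene. The whole 250 bases before the start are shown for Hspa5 and Hsp90b1 on the gene's strand, to show the element in its setting, with the fixed boxes in capitals (reverse-complemented for the second match of Hsp90b1).
Hspa5, chr2:34771840-34772089, plus strand: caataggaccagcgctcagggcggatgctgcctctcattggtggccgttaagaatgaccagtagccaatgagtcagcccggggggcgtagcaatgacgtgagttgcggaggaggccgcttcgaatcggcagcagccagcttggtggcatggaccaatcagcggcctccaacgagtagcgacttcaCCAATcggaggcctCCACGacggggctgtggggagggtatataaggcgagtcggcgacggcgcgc
Hsp90b1, chr10:86705445-86705694, minus strand: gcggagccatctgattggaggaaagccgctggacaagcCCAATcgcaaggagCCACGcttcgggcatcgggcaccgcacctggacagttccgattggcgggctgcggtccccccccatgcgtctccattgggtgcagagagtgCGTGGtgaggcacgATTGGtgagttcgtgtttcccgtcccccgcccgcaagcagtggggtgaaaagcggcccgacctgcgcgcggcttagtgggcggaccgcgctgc

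The remaining 5 genes held no exact match in these windows. Pdia3 and Pdia4 did hold the first box alone, CCAAT on either strand, as did the 5 genes above, whose longer element contains it. That made 7 of 10 genes, against 41.1% of all genes with a promoter window and 37.4% of all windows. For 5 of the 7 the box was given by the longer element, so the count is no separate result. The core of the unfolded protein response element, TGACGTGG, was found for Txndc5 in 1 of its 3 windows, at bases 138 to 131 before that start. This core was found in 0.676% of all windows and for 0.714% of all genes. Its letters hold the second box of the longer element as read on the opposite strand. It is shown with 10 bases on either side and the core in capitals.
Txndc5, chr13:38528035-38528062, minus strand: gcctcgccgcTGACGTGGcgctagccgc

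A shorter form of the element, ATTGG and CCACG with any 1 base between them, was found for 0 of the 10 genes. It was found in 0.0365% of all windows and for 0.0444% of all genes. Jchain and Xbp1 held none of the 4 motifs searched. Among the other ER lists described further on, the longer element was found for Dnajc3 and Creld2 of 14 chaperone genes with a promoter in the table, for Ero1b of 12 disulfide and redox genes, and for Syvn1 of 20 genes of the unfolded protein response and ER degradation. It was found for 0 of 27 genes of ER entry and 0 of 25 genes of ER to Golgi transport.

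**Figure D1:**
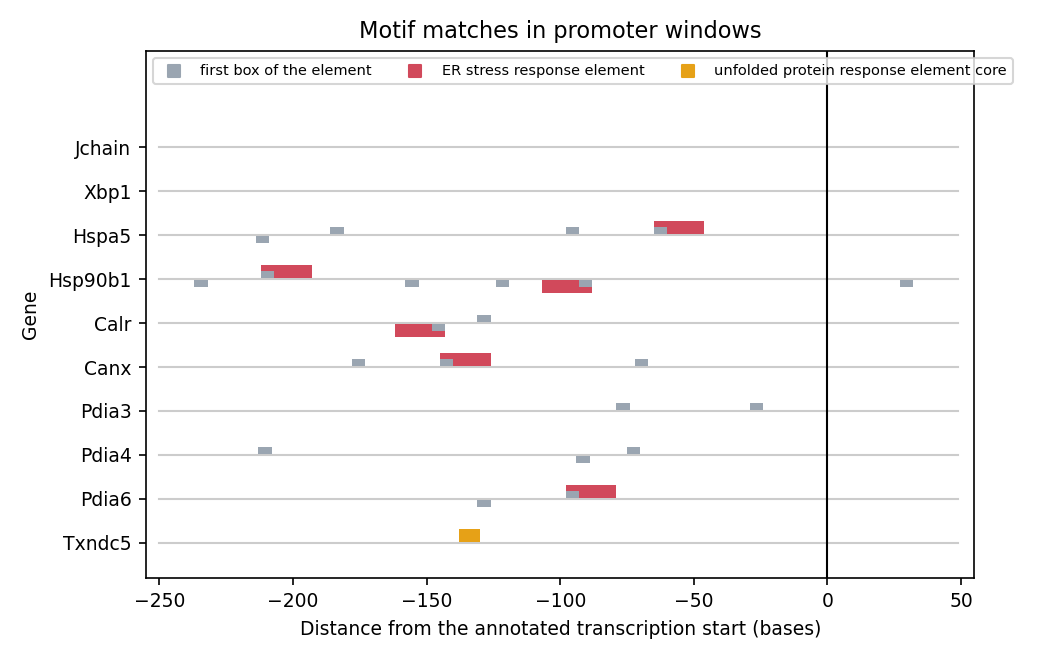
Position of motif matches (horizontal axis, bases from the annotated transcription start) in the promoter windows of the 10 genes (rows), drawn above the line for the gene's strand and below it for the opposite strand; the 3 windows of Txndc5 share a line. Hspa5, Calr, Canx and Pdia6 carry 1 red element each, Hsp90b1 carries 2, and Txndc5 carries the core of the unfolded protein response element.

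The table holds signal intensities on a linear scale, scaled before deposit to a common level. Background was read from the 15 bacterial control probe sets, whose targets are foreign to mouse and whose highest value was 95 on array 1 and 76.2 on array 2. A probe set had to pass the 60th percentile on both arrays to be called bright, a level of 346.32 for array 1 and 342.22 for array 2. Where a gene had several probe sets, the one with the highest mean log2 signal stood for it. Probe sequences differ in how well they bind, so signals of different genes are not ranked. Of 11 measured B cell genes 10 were bright, where 45.2% of all named genes were. Among them were the antigen receptor chains Cd79a and Cd79b and the surface protein Ms4a1 (CD20). This shows B cell transcripts in the RNA and does not tell spleen from other tissues that hold B cells. Markers of another organ were bright too: 12 of 15 genes of pancreatic acinar cells, whose values are given with the other cell markers.

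Signal of the secretion and folding genes was high with a single exception. Bright signal was found for 9 of the 10, where 45.2% of the 8251 named genes had it, and the same 9 exceeded the highest bacterial control, as 73.9% of named genes did. The 90th percentile of both arrays was exceeded by 5, Jchain, Xbp1, Hspa5, Hsp90b1 and Txndc5, against 10.7%. The median log2 signal was 10.85 over the 10 genes and 8.29 over all named genes. Over probe sets, 10 of 13 were bright, against 37.9% of all. In spleen RNA fewer cells of a type and less RNA per cell cannot be told apart, so none of these values says which cells carried the transcripts.

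Jchain, which links the units of polymeric IgM and IgA, gave 7657.3 on array 1 and 7566.3 on array 2, or 7612 ± 64.3 (SD, n = 2 arrays here and below). Both values lay far above the brightness cutoff and differed by 1.01-fold. Xbp1 gave 1938.3 and 2348.1, or 2143 ± 289.8. The array 2 signal was higher by 1.21-fold, and both exceeded the 90th percentile, which was 1467 on array 1 and 1460 on array 2. The single probe set of Xbp1 gives 1 value for the gene, so its spliced and unspliced forms are not separated.

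Among the large chaperones, Hspa5, the ER Hsp70 that binds heavy chains awaiting a light chain, gave 3477.1 and 3537, or 3507 ± 42.4. Its arrays differed by 1.02-fold. Hsp90b1, the ER Hsp90 known as GRP94, gave 5904.5 and 6752.4, or 6328 ± 600. Array 2 was the higher one, by 1.14-fold. These are the genes whose upstream sequences are printed in full above, and both were bright on both arrays.

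The lectin chaperones calnexin and calreticulin, which hold glycoproteins through their sugar chains, were read differently, with Canx above background and Calr not. Canx, the membrane-bound one, had 2 probe sets. The brighter gave 450.2 and 630.6, or 540 ± 128, and was bright. The dimmer gave 156.5 and 218, or 187 ± 43.5, which is above the bacterial controls and below the cutoff. Their ratio was 2.88 on array 1 and 2.89 on array 2, so the gap between the probe sets was nearly the same on both arrays.

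Calr, the soluble one, gave 5.9 on array 1 and 4.7 on array 2 from its only probe set. Both values lay below the median of the bacterial controls, 20.6 on array 1 and 22.9 on array 2. The probe set was therefore not above background, and no fold is given for it. Whether this only probe set reads its transcript was not tested, so the values do not show that Calr RNA is absent. Calr held a match to the ER stress response element all the same, and its partner enzyme Pdia3 was bright. Hyou1, another ER chaperone, of the Hsp70 superfamily and outside the 10 genes, likewise gave 5.4 and 3 from its only probe set.

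The 4 disulfide isomerases among the 10 genes were bright, as 45.2% of all named genes were. Pdia3 (ERp57), which works on glycoproteins held by calnexin and calreticulin, gave 1794 and 1456.6, or 1625 ± 239. Array 1 was the higher one, by 1.23-fold. Pdia4 (ERp72) gave 904.2 and 1092, or 998 ± 133, and was 1.21-fold higher on array 2. Txndc5 (ERp46), an isomerase with thioredoxin domains, gave 2132.9 and 2078.5, or 2106 ± 38.5. Its values differed by 1.03-fold.

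Pdia6 (P5), an isomerase that associates with BiP, was read by 3 probe sets. The brightest gave 1287.8 and 1372.4, or 1330.1 ± 59.8, and the next, which carries the suffix _g_at, gave 875.7 and 1128.1, or 1002 ± 178. Both were bright. The dimmest gave 271.3 and 325.3, or 298 ± 38.2, and was not. The highest exceeded the lowest by 4.75-fold on array 1 and 4.22-fold on array 2, and all 3 were higher on array 2.

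**Figure D2:**
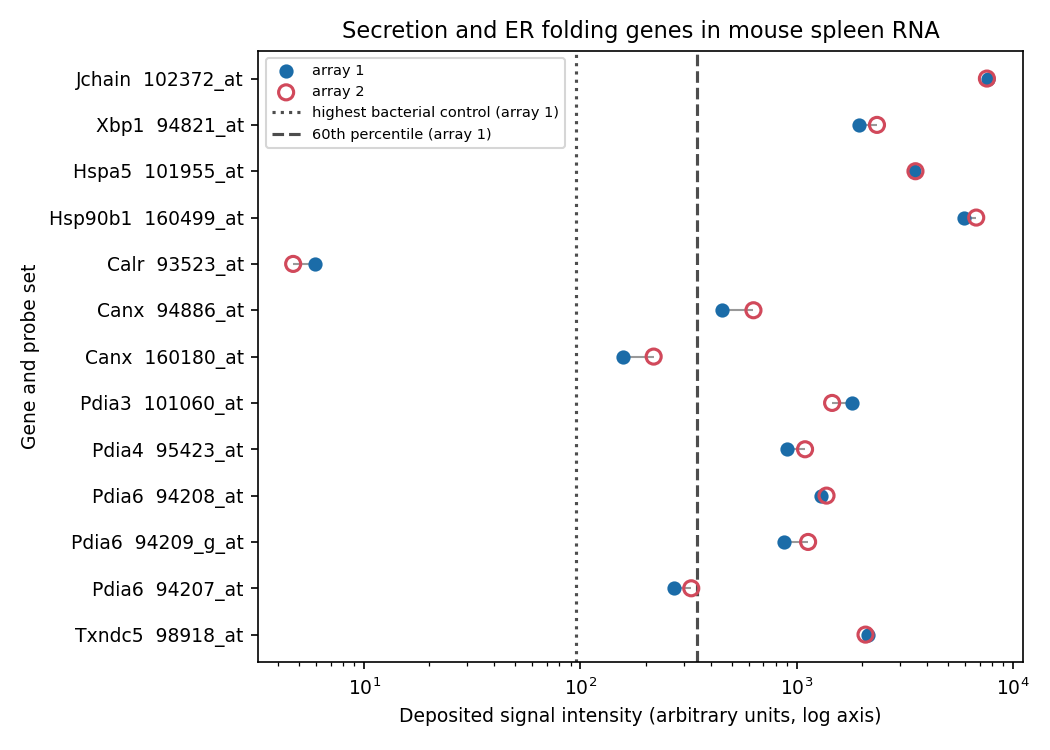
Deposited signal intensity (horizontal log axis, arbitrary units) of the 13 probe sets (rows) on array 1 (filled points) and array 2 (open circles), with the highest bacterial control and the 60th percentile of array 1 as vertical lines. Calr lies left of the control line on both arrays, 10 probe sets lie right of the percentile line, and 1 probe set each of Canx and Pdia6 lies between the lines.

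The arrays are replicates of 1 group, and the differences between them measure spread rather than a condition. They are given as log2 signal of array 1 minus array 2, after the median difference of bright probe sets was set to 0. Over the 9 genes above background the median difference was -0.09, with a range from -0.49 for Canx to 0.30 for Pdia3. Of these genes 3 were higher on array 1 and 6 on array 2, where the 3731 bright named genes split into 1869 and 1862. The central 95% of those bright named genes ran from -0.44 to 0.45. Canx alone of the 9 lay outside it, and Canx alone was more than 25% apart, at 1.40-fold, against 12.4% of bright named genes.

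The probe sets not used for a gene gave a second look at the same arrays. The dimmer Canx probe set differed by -0.48, close to the -0.49 of the brighter one. Those of Pdia6 differed by -0.09, -0.37 and -0.26. Of the 12 probe sets above background 9 were higher on array 2, against 49.1% of all 8132 above background. Of the 12, 3 were more than 25% apart, both of Canx and the middle one of Pdia6, against 24.6% of those 8132. All 3 were higher on array 2, a direction noted once their values were known, in which 11.3% of the 8132 passed that limit. The 3 belong to only Canx and Pdia6. Of the 12, 10 were bright, while the 8132 include many that were not, so the shares are not strictly alike. Probe sets of a gene share its transcript and are not replicates of it.

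**Figure D3:**
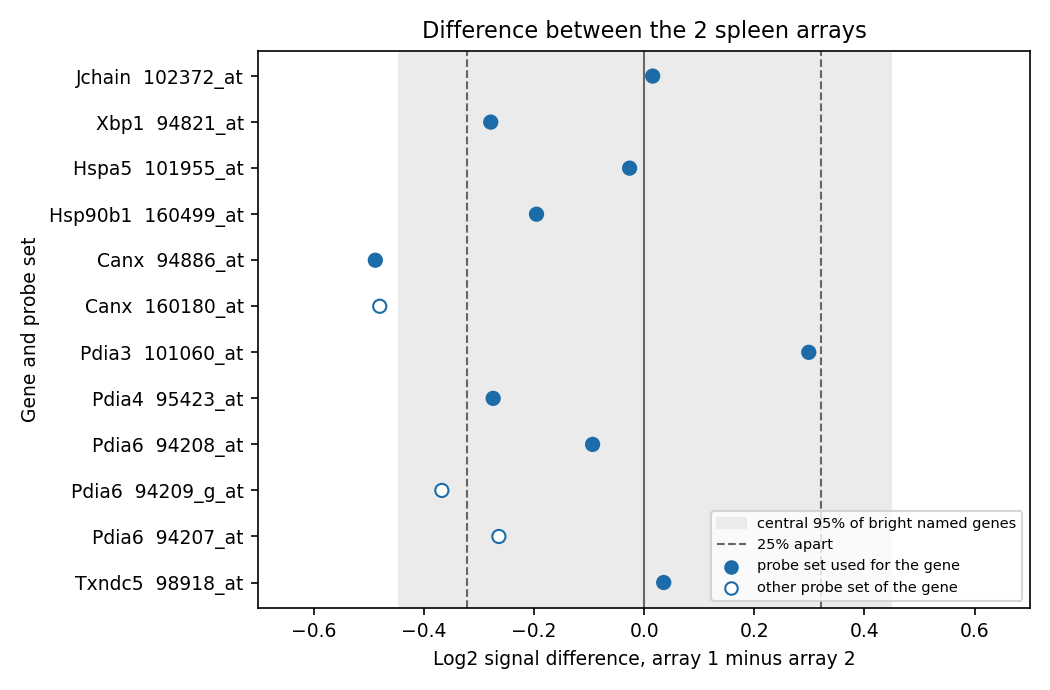
Log2 signal difference between the arrays (horizontal axis, array 1 minus array 2) for the 12 probe sets above background (rows), filled where the probe set stands for its gene. The shaded band is the central 95% of bright named genes, from -0.44 to 0.45; both Canx probe sets lie left of it and Pdia3 is the point furthest right, at 0.30.

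The rest of the secretory pathway was read with 5 lists, of which 98 genes were measured. Of these 73 were bright and 90 lay above the bacterial controls, where 45.2% and 73.9% of all named genes did, and their median log2 signal was 9.74, against 8.29. The counts of each list below are to be read against the same 45.2%. Other ER chaperones and folding helpers were bright in 13 of 16 cases. Dnajb11, a cofactor of BiP, gave 873 on array 1 and 714.2 on array 2, and Dnajb9, another cofactor, gave 482.9 and 388.6. Both were higher on array 1, by 1.22-fold and 1.24-fold. A dimmer probe set of Dnajb9 gave 219.8 and 226, was not bright and was slightly higher on array 2. Hyou1 and Sdf4 were not above background, and Rcn1 was above it but not bright.

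Of the other ER disulfide and redox enzymes 7 of 10 were bright. Ero1a, the oxidase that recharges disulfide isomerases, gave 1001.2 and 1089.8 from its brighter probe set and 824.9 and 833.4 from the other. Pdia5 gave 123.3 and 119.6 and was not bright, like Txndc12 and Qsox1. P4hb, the founding protein disulfide isomerase, gave 1543.2 and 916.2 from a probe set whose suffix, _r_at, marks relaxed probe selection. Its other probe set gave 16.9 and 127.4, below the highest bacterial control on array 1 and above it on array 2, with the difference in the opposite direction. The level of P4hb therefore depends on which of the probe sets is read.

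Genes of the unfolded protein response and ER degradation were bright in 12 of 19 cases. Among its sensors, Atf6 gave 170.3 and 200.7 and Eif2ak3 gave 210 and 204.1. Both were above background on each array and below the cutoff. Atf4, the transcription factor whose translation rises when Eif2ak3 is active, gave 2196.5 and 2310.7 and exceeded the 90th percentile. Trib3, Edem1, Derl2 and Os9 were also above background without being bright, and Wfs1 was not above background.

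Genes of ER entry, signal peptide removal and N-glycosylation were bright in 23 of 30 cases. Sec61a1 and Sec61b, subunits of the channel through which nascent chains enter the ER, gave 3107.9 and 3131.7, and 2149.5 and 2173.5. By these probe sets each differed by 1.01-fold between the arrays. A dimmer probe set of Sec61a1 gave 1107 and 1150 and was bright too. Sec62, an accessory subunit of that channel, gave 333.8 and 205.1 from its brightest probe set, 1.63-fold apart. Its other probe sets gave 277.5 and 209.1, and 96.2 and 111.2, the last higher on array 2. None of them was bright. Ssr4 was the one gene of this list not above background.

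Genes of ER to Golgi transport were bright in 18 of 23 cases. Lman1, a lectin that carries glycoproteins out of the ER, gave 745.6 and 824.9 from its brightest probe set, while the other two lay at background, at 12.1 and 5.8 and at 17.4 and 16.7. Sar1a, the GTPase that starts the budding of transport vesicles, gave 2328.7 and 2534.7, and the coat subunit Sec13 gave 1562.4 and 1384.5. By those probe sets these 3 were bright and differed between the arrays by 1.09-fold to 1.13-fold. Sec24b, Kdelr3, Bet1 and Ergic1 were not above background.

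Markers of cells that could carry these transcripts did not stand alike. Of 7 measured genes of antibody-secreting plasma cells 3 were bright, near the 45.2% of all named genes, with a median log2 signal of 7.75. Their summed signal was 4918 on array 1 and 4887 on array 2. Irf4, a transcription factor of activated B and plasma cells, gave 911.3 and 831.2 and was bright. Prdm1, which encodes Blimp-1, the factor that commits cells to secretion, gave 169 and 134.7, and Sdc1, the surface marker CD138, gave 92.9 and 89. Prdm1 was above background and not bright, and Sdc1 did not exceed the highest bacterial control on array 1. A dimmer probe set of Sdc1 gave 20.7 and 29.2, below that control on both arrays.

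Acinar cells of the pancreas, which lies beside the spleen, also export protein through a large ER. Bright signal was found for 12 of 15 measured acinar genes, where all named genes had a share of 45.2%, and 10 exceeded the 90th percentile, against 10.7%. Their median log2 signal was 11.28. The summed signal was 71894 on array 1 and 74130 on array 2. The elastase Cela1 gave 8838.8 and 8920.3, the chymotrypsinogen Ctrb1 23276.2 and 25030.4, and the trypsinogen Prss2 11363.1 and 11506.5. The probe set of Ctrb1 carries the suffix _r_at and that of Prss2 the suffix _f_at. No acinar marker was at 0, and the one that did not pass the bacterial controls on both arrays was Spink1. Of the 12 bright acinar genes 10 were higher on array 2, against 1862 of the 3731 bright named genes. The differences were small: the median log2 difference of those 12 acinar genes, array 1 minus array 2, was -0.02. The pooled SD of bright probe sets on the log2 scale was 0.15. Of the 12 genes 0 were more than 25% apart. The part of acinar RNA in the signal of the 10 secretion and folding genes was not tested.

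Islet and liver genes gave a different reading. Of 7 islet genes 0 were bright, where all named genes had that share of 45.2%, with summed signals of 1281 and 1016 on arrays 1 and 2. Insulin Ins2 gave 300.6 and 315.3 from its brighter probe set and 29.8 and 29 from the other. Glucagon Gcg gave 14.4 and 21.5, and somatostatin Sst gave 41.5 and 38.3. Of 10 liver genes 3 were bright, below that same share, with summed signals of 4768 and 4833. Another 5 were not above background. Albumin Alb gave 2170.6 and 2597.1 and Apoa1 gave 530.7 and 632, both bright. Ttr gave 160.6 and 248.1 and was not bright. None of these markers was at 0. The B cell list had a median log2 signal of 11.24 and summed signals of 40629 and 40648.

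**Figure D4:**
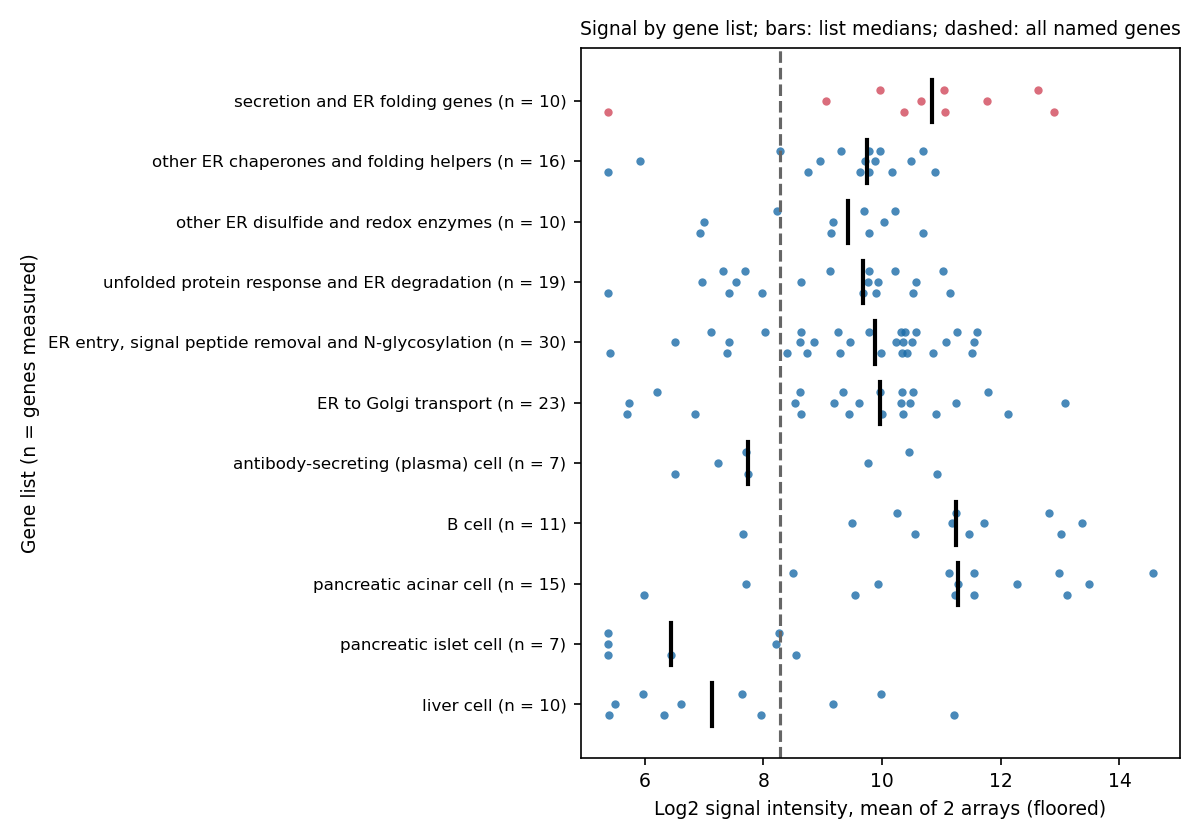
Log2 signal (horizontal axis, mean of 2 arrays after flooring low values) of each measured gene (points) in the secretion and ER folding set, 5 lists of the secretory pathway and 5 lists of cell markers (rows), with the list median as a bar and the median of all named genes, 8.29, as a dashed line. The 5 pathway medians lie right of the dashed line, as do those of B cells and acinar cells, while the medians of plasma, islet and liver cell lists lie left of it.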

How the data were processed

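The authors deposited signal intensity on a linear scale, with 1 value for each of 12488 probe sets on either array. Software and detection calls are not given in the sources used here. With the lowest and highest 2% left out, the arrays averaged 499.8 and 499.5, from which the common scaling was read. The 66 control probe sets stayed out of lists. Of the others 10833 named a single gene, and only these stood for genes. Gene identifiers of all 10 genes were found in the RefSeq table. For the log2 scale, intensities were floored at the 20th percentile (41.8 on both arrays). Levels, counts and differences are descriptions, since 2 arrays of 1 group allow no comparison of conditions. The genes and lists were chosen with earlier results of these data known. Named were the 10 genes and the first 3 measured genes of each list. Any other gene named, such as those below a cutoff, was picked once its values were known. Alternatives changed 1 choice at a time. The difference calculation and the motif search were checked on simulated data. The tools were Python 3.11.15, pandas 2.3.3, numpy 2.4.6, statsmodels 0.14.6 and matplotlib 3.10.9.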

Additional observations from a re-analysis of the deposited data

Results flagged for a closer look

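Probe sets that name several genes entered no count, and some that name a gene of the lists exceeded every bacterial control on both arrays. For ER entry, a probe set that names Sec61g among 5 genes averaged 3475 over the arrays. For ER to Golgi transport, one of Tmed10 averaged 1268, and 3 probe sets of Tmed2 averaged 185.6, 1341 and 2489.8. For pancreatic acinar cells, 2 amylase probe sets, both naming Amy2a2 and Amy2a5, averaged 23349.3 and 29521.8. For liver, 3 probe sets that name Serpina1a averaged 1343.6, 956.8 and 2871. None of the 10 secretion and folding genes was named by such a probe set. With 2 arrays, no check for a single array that stands apart was possible.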

How the results depend on the processing

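The number of bright secretion and folding genes, 9 of 10, stayed between 8 and 9 over 7 alternatives. It was 8 when a gene's probe sets were averaged, against 41.4% of all named genes, and with brightness at the 75th percentile, against 28.5%, and Canx joined Calr below the cutoff in both. The count above the bacterial controls stayed at 9 over its 5 alternatives. The median log2 signal ranged from 10.76 (array 2 without array 1) to 10.86 (array 1 without array 2), against 10.85 on both. The median difference between the arrays ran from -0.20, with the mean over probe sets, to -0.09, and the count of genes over 25% apart stayed at 1, under quantile and loess normalization, no centring, a pseudocount of 16, marked probe sets left out and the mean over probe sets. Bright genes numbered 10 to 14 among other ER chaperones, 5 to 8 among disulfide and redox enzymes, 10 to 13 in the unfolded protein response list, 16 to 24 for ER entry, 14 to 19 for transport, 2 to 3 for plasma cells and 9 to 13 for acinar cells, each within 1.5 times the main count. These counts move with the setting itself: 28.5% of all named genes were bright at the 75th percentile and 55.7% at the 50th. Leaving out marked probe sets also shortened some lists, to 9 measured disulfide and redox genes and 11 acinar genes. With the mean over probe sets Canx had a mean log2 signal of 8.49, against 9.06, and Pdia6 9.77, against 10.38. The floor sets the log2 value of Calr, so that value has no order among dim genes. No paired analysis was possible because the series holds 1 group.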
